A study of Homo sapiens with 9 samples.

Results

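In all, 10 genes of the DNA damage checkpoint were followed in RNA-seq of the H1299 line, long established from a human non-small cell lung cancer. The genes were chosen by name, as the kinases ATM, ATR, CHEK1, CHEK2, WEE1 and PKMYT1 and their partners ATRIP, TOPBP1, ETAA1 and MDC1. They are 10 of 60966 genes in the tables, and all 10 were among the 14985 genes tested, which reached at least 1 FPKM in at least 3 samples. FPKM is the number of fragments per kilobase of transcript, scaled to library size, and a gene's level here is the sum over its transcripts. The cells had been transfected for 48 h with 100 nM of a scrambled siRNA (Scramble) or of either of 2 siRNAs against FIBP (Si-FIBP#1 and Si-FIBP#2), with 3 samples per group. No group in this RNA-seq was labelled as irradiated or given a DNA-damaging drug, and all cells carry the same line's genotype, so the levels are those of cultured cells after transfection. The design text calls the 3 samples of a group independent, and the methods say in general that experiments were repeated independently. Neither says what was separate for these RNA samples (culture, transfection or extraction), so the p-values cover the spread between these samples.

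When DNA is damaged or replication forks stall, ATM and ATR, large kinases of one family, start a signal that stops the cell cycle. ATM answers mainly to double-strand breaks and ATR to single-stranded DNA, to which its partner ATRIP brings it. TOPBP1 and ETAA1 activate ATR, and MDC1 holds ATM and repair factors at the broken chromatin. ATR and ATM phosphorylate CHEK1 and CHEK2, which restrain the CDC25 phosphatases. WEE1 and PKMYT1 put the inhibitory phosphates on CDK1 that CDC25 removes, and so hold cells before mitosis. Much of this control acts on the proteins, which RNA-seq does not measure.

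FIBP itself ranged from 77.74 to 88.38 FPKM over the Scramble samples, from 4.30 to 7.77 under Si-FIBP#1 and from 5.92 to 8.21 under Si-FIBP#2, so the labels and the targeted gene went together. Estimated depth was 20100000 to 23950000 fragments per library. Pairs of samples from one group correlated at r of 0.983 to 0.988 over genes, and no library stood apart. Of the markers of the line, KRT8 (67.2 to 108 FPKM), KRT18 (143 to 483) and VIM (1592 to 3369) were abundant and EPCAM was at 0 to 0.28. The leukocyte, endothelial and alveolar markers were at 0 to 0.27 FPKM, apart from CD68 at 31.0 to 67.0, a lysosomal protein's gene that is not confined to leukocytes. In a bulk sample, fewer cells of a kind and less RNA per cell cannot be told apart.

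The genes of the CDK1 inhibitory kinase PKMYT1, the effector kinases CHEK1 and CHEK2 and the ATR activator TOPBP1 fell with both siRNAs, and WEE1 fell with Si-FIBP#1. The apical kinases ATM and ATR and the second ATR activator, ETAA1, gave no call in either comparison. With Si-FIBP#1, 5 of 10 genes fell and 0 rose at an adjusted p below 0.05 (limma, Benjamini-Hochberg over all genes tested), where 19.9% of all genes fell and 27.8% rose. With Si-FIBP#2, 4 of 10 fell and 0 rose, beside 17.7% and 31.1% of all genes. A fall of over 2-fold was called for 2 genes with Si-FIBP#1 (PKMYT1 and WEE1) and 1 with Si-FIBP#2 (PKMYT1), against 3.11% and 2.13% of all genes. The median log2 fold change of the 10 genes was -0.40 under Si-FIBP#1 and -0.23 under Si-FIBP#2, where the median of all genes was 0.073 and 0.111. Both comparisons use the same 3 Scramble samples, so they are not independent of each other.

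In Scramble cells, the mean levels ran from 40.6 FPKM for TOPBP1 to 4.57 for ETAA1. MDC1 (35.5), CHEK1 (29.5), PKMYT1 (27.4) and ATM (24.8) followed TOPBP1. CHEK2 (19.1), WEE1 (17.5) and ATR (15.9) came next, and ATRIP was at 6.93 FPKM, with means over 3 samples throughout. The sample ranges of CHEK1 (27.9 to 32.1) and PKMYT1 (25.8 to 29.9) overlapped, as did those of PKMYT1 and ATM (22.4 to 26.2), of CHEK2 (18.7 to 19.8) and WEE1 (16.2 to 19.5), and of WEE1 and ATR (15.6 to 16.3), so the order of these neighbours was not resolved. FPKM is a level per length, but a sum over transcripts counts a short fragment of a gene as fully as its long mRNA.

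PKMYT1 (ENSG00000127564, chromosome 16, 2968024 to 2980539, minus strand, GRCh38) encodes the membrane-bound kinase that phosphorylates CDK1. The Scramble samples had 29.92, 25.77 and 26.41 FPKM. With Si-FIBP#1 it was at 6.70, 6.79 and 6.90 FPKM, and with Si-FIBP#2 at 12.24, 9.06 and 10.60. The 3 groups did not overlap, and Si-FIBP#1 gave the lowest and most uniform values. The mean was 24.8% of Scramble with Si-FIBP#1 (6.80 ± 0.10 against 27.4 ± 2.23, SD, n = 3) and 38.9% under Si-FIBP#2 (10.6 ± 1.59). Its log2 fold change, on the log2(FPKM + 1) scale used throughout, was -1.86 (SE 0.10, limma adjusted p = 1.1e-06) and -1.29 (SE 0.10, adjusted p = 1.1e-05). This was the largest fall of the 10 genes in either comparison.

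All 4 PKMYT1 transcripts that could be tested fell with Si-FIBP#1, and 2 of them fell with Si-FIBP#2. The most abundant, ENST00000262300 (2061 nt, 9 exons, protein-coding, chr16:2972791-2980539), held 54.0% of the Scramble sum. It went from 14.8 FPKM in Scramble to 3.39 and 4.95 with Si-FIBP#1 and Si-FIBP#2, with adjusted p = 5.6e-05 and 0.00024 by limma over all transcripts. PAQR4 overlaps PKMYT1 on the opposite strand over 4245 nt and was itself at 5.42 to 20.88 FPKM. Whether the counting used strand is not given in the sources used here, so reads of the overlap cannot be assigned with certainty.

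WEE1 (ENSG00000166483, chromosome 11, 9573681 to 9593457, plus strand), the nuclear kinase for the same CDK1 control, separated the siRNAs. Its Scramble values were 19.51, 16.17 and 16.78 FPKM. Si-FIBP#1 gave 6.76, 5.58 and 8.73 FPKM, and Si-FIBP#2 gave 14.06, 12.59 and 15.57. All Si-FIBP#1 samples lay below all Si-FIBP#2 samples, which in turn lay just below the lowest Scramble sample. The fall with Si-FIBP#1 was to 40.2% of Scramble (log2 fold change -1.22, SE 0.14, limma adjusted p = 0.0001). With Si-FIBP#2 the mean was 80.5% of Scramble (log2 fold change -0.29, 95% interval -0.61 to 0.02, limma adjusted p = 0.11), which did not pass the test. That last call depended on the settings. It passed when the samples were scaled by median ratios (-0.41, limma adjusted p = 0.035), when the fit held only the groups compared (-0.29, adjusted p = 0.049) or with the length-weighted sum described below (-0.29, adjusted p = 0.0044), and its adjusted p ran from 0.0044 to 0.28 over 19 alternatives.

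Transcripts of WEE1 moved in both directions with Si-FIBP#2. ENST00000450114 (3588 nt, 11 exons, protein-coding, chr11:9573681-9589207) was the most abundant, at 7.13, 8.58 and 8.50 FPKM in Scramble, 2.56, 3.62 and 3.80 under Si-FIBP#1, and 5.60, 5.85 and 4.67 under Si-FIBP#2. It passed in both comparisons, by -1.08 for Si-FIBP#1 (limma adjusted p = 0.0014) and by -0.51 for Si-FIBP#2 (adjusted p = 0.04). ENST00000299613 (3436 nt, 11 exons, protein-coding, chr11:9574687-9589984) starts further downstream, and it was named after its values were seen. It was at 1.30, 0.41 and 0.77 FPKM in Scramble, at 1.66, 0.97 and 0.88 with Si-FIBP#1, and at 2.28, 3.01 and 2.32 with Si-FIBP#2. It was the 1 checkpoint transcript that rose with Si-FIBP#2 (0.98, limma adjusted p = 0.017). Its share of the WEE1 sum was 18.02% there and 16.66% under Si-FIBP#1, against 4.73% for Scramble, so the higher share was not particular to Si-FIBP#2. The Si-FIBP#2 samples did not overlap either other group, but the difference between the siRNAs did not pass for this transcript (0.72, adjusted p = 0.14). A transcript of 838 nt annotated for nonsense-mediated decay, ENST00000530175, averaged 2.85, 0.97 and 2.87 FPKM in the 3 groups and varied from 0.02 to 2.47 among the Si-FIBP#1 samples. Transcripts of one gene share reads, so their separate levels are estimates.

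**Figure D1:**
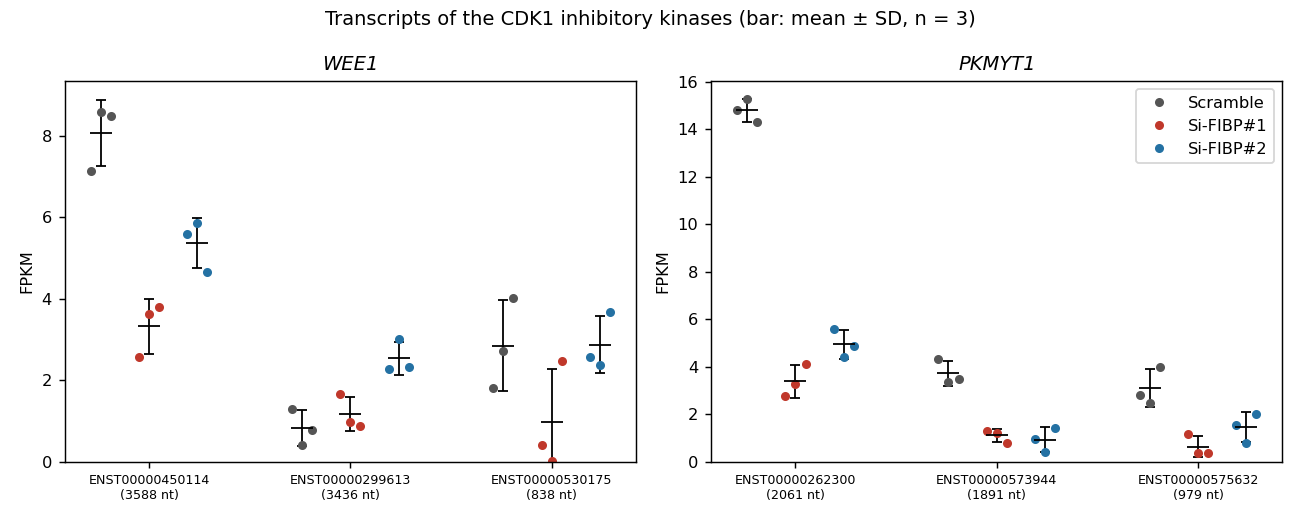
FPKM (linear axis from 0) of the 3 transcripts of WEE1 and the 3 of PKMYT1 shown, with 1 point per sample, Scramble in grey, Si-FIBP#1 in red, Si-FIBP#2 in blue and bars for the mean ± SD of 3 samples. ENST00000450114 of WEE1 lies lowest with Si-FIBP#1 and ENST00000299613 highest with Si-FIBP#2, while the main PKMYT1 transcript drops from 14.8 to 3.39 and 4.95 FPKM.

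The siRNAs were then set against each other directly. Of the 10 genes, 2 were higher with Si-FIBP#2 than with Si-FIBP#1 and 0 were lower, where 9.58% of all genes were higher and 5.8% lower. WEE1 differed by 0.92 (95% interval 0.61 to 1.24, limma adjusted p = 0.0031) and PKMYT1 by 0.57 (0.34 to 0.80, adjusted p = 0.0064). No gene of the 10 passed the call at over 2-fold, which 0.561% of all genes did. Groups that did not overlap, with Si-FIBP#2 higher, were seen for WEE1, PKMYT1 and ETAA1, 3 of 10 beside 20.4% of all genes. FIBP did not separate the siRNAs (difference 0.13, 95% interval -0.28 to 0.54, limma adjusted p = 0.69).

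TOPBP1 (ENSG00000163781, chromosome 3, 133598175 to 133662380, minus strand), the scaffold that activates ATR at the checkpoint clamp, fell with both siRNAs. It was at 41.43, 41.13 and 39.17 FPKM in Scramble, at 24.90, 25.82 and 20.80 with Si-FIBP#1, and at 23.02, 21.57 and 21.63 with Si-FIBP#2. Every depleted sample was below every Scramble sample, and the depleted groups overlapped. The mean fell to 58.8% and 54.4% of Scramble, with log2 fold changes of -0.75 (SE 0.08, limma adjusted p = 6e-05) and -0.85 (SE 0.08, adjusted p = 3e-05). The difference between the siRNAs was -0.10, with a 95% interval of -0.28 to 0.08. The transcript ENST00000260810 (5761 nt, 28 exons) held 63.2% of the Scramble sum and went from 25.7 FPKM to 15.1 and 14.4, falling by 0.73 and 0.79 on the log2 scale with adjusted p = 0.00013 and 0.0001 in limma over transcripts.

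CHEK1 (ENSG00000149554, chromosome 11, 125625136 to 125676255, plus strand), the kinase downstream of ATR, was at 28.47, 27.87 and 32.07 FPKM in Scramble. Under Si-FIBP#1 it was at 19.84, 19.81 and 22.68 FPKM, and under Si-FIBP#2 at 24.23, 21.71 and 20.43. The depleted samples all lay below Scramble and overlapped each other. The mean fell to 70.5% (log2 fold change -0.48, SE 0.09, limma adjusted p = 0.0014) and 75.1% of Scramble (-0.40, SE 0.09, adjusted p = 0.004). Its most abundant transcript, ENST00000438015 (3315 nt, 13 exons), went from 10.1 FPKM to 6.82 and 5.13 (limma adjusted p = 0.02 and 0.0019). Not every CHEK1 transcript was lower. ENST00000532449 (3390 nt), named after its values were seen, averaged 0.83 FPKM in Scramble and 2.74 and 2.53 with the siRNAs and did not pass the test (adjusted p = 0.053 and 0.07). CHEK1 overlaps STT3A, on the same strand, over 80 nt, and STT3A was at 48.02 to 55.49 FPKM.

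CHEK2 (ENSG00000183765, chromosome 22, 28687743 to 28742422, minus strand), the kinase downstream of ATM, was at 18.98, 18.67 and 19.78 FPKM in Scramble. The Si-FIBP#1 samples had 12.71, 9.83 and 13.22 FPKM and the Si-FIBP#2 samples 13.12, 9.54 and 14.38. Again no depleted sample reached a Scramble sample. The mean fell to 62.3% (log2 fold change -0.65, SE 0.14, limma adjusted p = 0.0047) and 64.5% of Scramble (-0.61, SE 0.14, adjusted p = 0.0063), and the difference between the siRNAs had a 95% interval of -0.29 to 0.36. The CHEK2 sum was spread over many transcripts, none with 20% of it. Of the 8 tested, 0 passed with Si-FIBP#1 and 1 fell with Si-FIBP#2 (ENST00000348295, adjusted p = 0.044, named after its values were seen). Of 5 CHEK2 pseudogenes in the tables, 4 were at 0 in every sample and the highest value of the other was 0.15 FPKM. HSCB overlaps CHEK2 on the opposite strand over 392 nt and was at 14.21 to 24.62 FPKM.

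**Figure D2:**
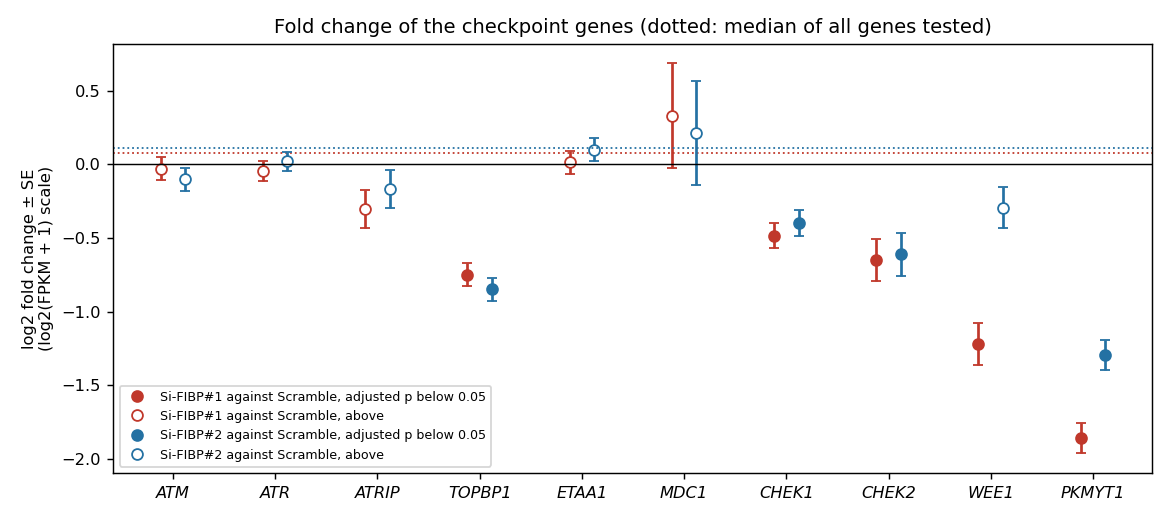
Log2 fold change ± SE of the checkpoint genes on the log2(FPKM + 1) scale, with Si-FIBP#1 against Scramble in red and Si-FIBP#2 against Scramble in blue; filled points have an adjusted p below 0.05 and dotted lines mark the median of all genes tested. The filled points run from -0.40 for CHEK1 with Si-FIBP#2 to -1.86 for PKMYT1 with Si-FIBP#1, and the MDC1 bars are the widest.

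ATM (ENSG00000149311, chromosome 11, 108222484 to 108369102, plus strand) was at 25.90, 22.40 and 26.24 FPKM in Scramble, at 25, 23.14 and 24.68 with Si-FIBP#1, and at 22.67, 24.93 and 21.59 with Si-FIBP#2. The 3 groups overlapped. The log2 fold changes were -0.03 (95% interval -0.21 to 0.15) and -0.10 (-0.28 to 0.07), with limma adjusted p = 0.78 and 0.31. A retained-intron transcript of 740 nt, ENST00000527181 (chr11:108353756-108365738), held 35.7% of the ATM sum in Scramble. C11orf65 overlaps ATM on the opposite strand over 60584 nt, this transcript included, and was at 0.68 to 3.41 FPKM. The longest of the abundant ATM transcripts, ENST00000675843 (12915 nt), averaged 5.33, 6.41 and 5.88 FPKM in the 3 groups. When each transcript was weighted by its length, an alternative chosen after seeing the data, ATM was higher with Si-FIBP#1 (0.18, limma adjusted p = 0.012) and was not called with Si-FIBP#2 (0.07, adjusted p = 0.28). When samples were scaled by median ratios, the Si-FIBP#2 value passed in the other direction (-0.22, adjusted p = 0.035), so the sign for ATM depends on the processing.

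ATR (ENSG00000175054, chromosome 3, 142449235 to 142578826, minus strand) was at 15.89, 16.27 and 15.56 FPKM in Scramble, at 16.13, 14.80 and 15.19 with Si-FIBP#1, and at 16.70, 15.03 and 16.76 with Si-FIBP#2. Its groups overlapped too, and the means were 96.7% and 102% of Scramble. The log2 fold changes were -0.05 (95% interval -0.19 to 0.10, limma adjusted p = 0.59) and 0.02 (-0.13 to 0.17, adjusted p = 0.82). Its full-length transcript ENST00000350721 (8158 nt, 47 exons) averaged 3.19, 3.82 and 3.89 FPKM in the 3 groups. The other abundant ones were ENST00000656590 at 3.56, 3.37 and 3.73 FPKM and ENST00000654170 at 3.12, 3.65 and 3.18, and none of the 5 tested passed.

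ATRIP (ENSG00000164053, chromosome 3, 48446710 to 48467645, plus strand) was low, at 6, 6.46 and 8.34 FPKM in Scramble, 5.04, 4.92 and 6.23 under Si-FIBP#1, and 5.41, 6.03 and 6.61 under Si-FIBP#2. Scramble replicate 3 was the highest and the groups overlapped. The log2 fold change with Si-FIBP#1 was -0.31, with a 95% interval of -0.60 to -0.01 that is not adjusted for the number of genes, and limma adjusted p = 0.079. Without Scramble replicate 1 it was -0.39 (adjusted p = 0.049), without Si-FIBP#1 replicate 3 -0.40 (adjusted p = 0.046), and with median ratios -0.37 (adjusted p = 0.043), so the call turned on the setting. With Si-FIBP#2 it was -0.17 (limma adjusted p = 0.31). The length-weighted sum passed in both comparisons (-0.34, adjusted p = 0.0035, and -0.25, adjusted p = 0.022, by limma). About 279 to 429 fragments per library were behind these values by the depth estimate. The abundant transcripts were ENST00000346691 (2.10, 1.60 and 1.03 FPKM in the 3 groups), ENST00000320211 (1.62, 1.15 and 1.44) and ENST00000635099 (1.02, 0.41 and 1.38), and none passed. TREX1, on the same strand, overlaps ATRIP over 1835 nt and was at 0.12 to 1.36 FPKM.

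ETAA1 (ENSG00000143971, chromosome 2, 67397319 to 67412089, plus strand), which activates ATR through RPA-coated DNA, was the lowest of the 10. It was at 4.57, 4.40 and 4.73 FPKM in Scramble, at 4.52, 4.72 and 4.61 with Si-FIBP#1, and at 4.82, 4.81 and 5.24 with Si-FIBP#2. The Si-FIBP#2 samples lay above all others, as 36.1% of all genes did above Scramble. The difference did not pass (log2 fold change 0.10, 95% interval -0.08 to 0.27, limma adjusted p = 0.33), and with median ratios it was -0.0043. For Si-FIBP#1 the log2 fold change was 0.01 (limma adjusted p = 0.9), which turned to -0.05 with median ratios. A single transcript, ENST00000272342 (4948 nt), held 92.7% of its Scramble sum.

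MDC1 (ENSG00000137337, chromosome 6, 30699807 to 30717889, minus strand) had a sum that could not be read without its transcripts. The sum was 38.87, 34.28 and 33.30 FPKM in Scramble, 28.78, 50.61 and 61.39 under Si-FIBP#1, and 29.91, 75.73 and 30.58 under Si-FIBP#2. The depleted samples thus lay on both sides of Scramble, and the log2 fold changes of 0.33 and 0.21 had limma adjusted p = 0.47 and 0.65. The 3 high values came from ENST00000494654, a noncoding processed transcript of 148 nt in 3 exons (chr6:30711472-30711931). It was listed at 26.37 and 33.74 FPKM in replicates 2 and 3 of Si-FIBP#1 and at 43.31 in replicate 2 of Si-FIBP#2, and at 0 in the other 6. The labels give a selected fragment size of 300 bp, which is longer than this transcript.

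Without transcripts under 300 nt, an alternative chosen after seeing the data, MDC1 was at 38.87, 34.28 and 33.30 FPKM in Scramble. The Si-FIBP#1 samples then had 28.78, 24.24 and 27.65 FPKM and the Si-FIBP#2 samples 29.91, 32.42 and 30.58. All depleted samples then lay below all Scramble samples. The log2 fold change became -0.39 (limma adjusted p = 0.0026) for Si-FIBP#1 and -0.19 (adjusted p = 0.075) for Si-FIBP#2. The length-weighted sum gave -0.35 (adjusted p = 7.4e-05) and -0.22 (adjusted p = 0.0033). The longest Ensembl transcript among the abundant ones, ENST00000376406 (6968 nt, 15 exons), went from 11.1 FPKM to 8.99 and 8.54 and fell with both siRNAs (-0.28 and -0.34, limma adjusted p = 0.029 and 0.013). An assembled MDC1 transcript of 6227 nt, named after its values were seen, held 28.1% of the Scramble sum and averaged 9.98, 6.25 and 9.21 FPKM. It fell with Si-FIBP#1 (-0.61, limma adjusted p = 0.013) and did not pass with Si-FIBP#2 (-0.10, adjusted p = 0.64). The retained-intron transcript ENST00000489540 (1402 nt) averaged 8.66, 6.24 and 7.28 FPKM and did not pass. MDC1-AS1, annotated on the opposite strand over the position of the 148 nt transcript, was listed at 0 in all samples.

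**Figure D3:**
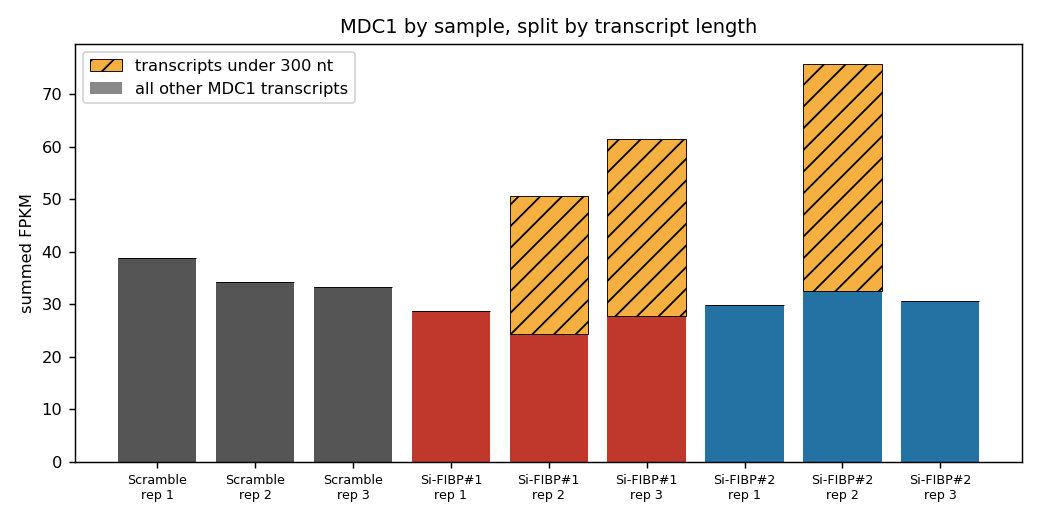
Summed FPKM of MDC1 in each of the 9 samples (stacked bars, linear axis from 0), with hatched orange for transcripts under 300 nt and solid colour for all others. The hatched part is present in 3 of the 6 depleted samples, at 26.37, 33.74 and 43.31 FPKM, and the solid part of every depleted sample is below the lowest Scramble bar of 33.30.

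Across the 10 genes the tables held 163 transcripts, of which 7 were assembled from the reads and 53 could be tested. With Si-FIBP#1, 13 of the 53 fell and 0 rose (limma, adjusted over all 47662 transcripts tested), where 10.0% of all transcripts fell and 10.7% rose. With Si-FIBP#2, 9 fell and 1 rose, beside 8.46% and 10.6%. The transcripts that fell belonged to PKMYT1, TOPBP1, CHEK1, WEE1, MDC1 and, with Si-FIBP#2, CHEK2. No tested transcript of ATM, ATR, ATRIP and ETAA1 passed.

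The groups of samples did not overlap, with the depleted samples lower, for PKMYT1, WEE1, TOPBP1, CHEK1 and CHEK2 in both comparisons, 5 of 10 genes each. Among all genes this held for 24.3% under Si-FIBP#1 and 21.2% under Si-FIBP#2.

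RefSeq start regions are shown for the falling genes TOPBP1, CHEK1 and CHEK2, for which they were matched, and for ATR, which gave no call. RefSeq promoter windows (GRCh38.p14, 300 bases around the start site, most of them before it) were matched for 8 of the 10 genes, with 12 windows in all, but not for PKMYT1 and WEE1. They were searched on both strands for the E2F letters TTTGGCGC, TTTCCCGC and TTTCGCGC, for the cell cycle homology region TTTGAA and for the CCAAT box. E2F factors drive genes of DNA synthesis, the homology region is known from genes of mitosis, and the CCAAT box binds NF-Y. Each window runs 5′ to 3′ on the strand of its gene, with the matched letters in capitals, and is chr3:133661892-133662191 (minus strand) for TOPBP1, chr11:125626106-125626405 (plus) for CHEK1, chr22:28741771-28742070 (minus) for CHEK2 and chr3:142578684-142578983 (minus) for ATR.
TOPBP1: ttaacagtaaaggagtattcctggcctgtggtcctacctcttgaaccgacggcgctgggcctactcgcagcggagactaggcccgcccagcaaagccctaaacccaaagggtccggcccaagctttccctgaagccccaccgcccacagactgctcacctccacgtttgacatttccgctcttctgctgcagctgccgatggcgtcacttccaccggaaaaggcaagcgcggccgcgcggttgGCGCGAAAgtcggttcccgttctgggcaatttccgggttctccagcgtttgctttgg
CHEK1: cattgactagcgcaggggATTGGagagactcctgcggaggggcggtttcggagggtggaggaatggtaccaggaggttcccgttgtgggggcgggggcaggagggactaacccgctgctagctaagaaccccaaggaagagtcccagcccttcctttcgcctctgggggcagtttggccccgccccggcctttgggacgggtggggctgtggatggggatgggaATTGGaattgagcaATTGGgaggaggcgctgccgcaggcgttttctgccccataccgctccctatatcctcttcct
CHEK2: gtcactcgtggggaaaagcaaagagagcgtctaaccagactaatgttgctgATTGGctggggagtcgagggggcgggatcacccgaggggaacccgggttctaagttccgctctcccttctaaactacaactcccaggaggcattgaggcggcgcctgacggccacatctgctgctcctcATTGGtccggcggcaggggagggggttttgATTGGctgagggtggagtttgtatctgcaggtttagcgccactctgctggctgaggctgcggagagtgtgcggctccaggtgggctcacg
ATR: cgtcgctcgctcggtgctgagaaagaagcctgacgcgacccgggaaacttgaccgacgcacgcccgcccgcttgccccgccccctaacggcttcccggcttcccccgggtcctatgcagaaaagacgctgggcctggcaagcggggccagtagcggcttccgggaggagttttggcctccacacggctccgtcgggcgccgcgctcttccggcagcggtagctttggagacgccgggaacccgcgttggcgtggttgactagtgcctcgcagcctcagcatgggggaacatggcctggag

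The TOPBP1 window held TTTCGCGC on the strand opposite to the gene. It is printed as GCGCGAAA, whose first base is at -7 from the start site. These letters, on either strand, were in 0.515% of 35116 RefSeq promoter windows. The other E2F spellings, TTTGGCGC (0.652% of windows) and TTTCCCGC (1.63%), were in none of the 12. CCAAT on either strand was in 10 of the 12 windows, from 6 genes, beside 34.6% of all windows. The printed CHEK1 window and the CHEK2 window each had 3 copies, the other CHEK1 windows had 1 each, and the ATR and TOPBP1 windows had none. The 3 CHEK1 windows overlap, so they are not separate observations. The most abundant CHEK1 transcript, ENST00000438015, starts at 125625136, before the first of these windows at 125625974, so its own start region was not searched. TTTGAA was in a window of ATM and in that of MDC1, beside 15.2% of all windows. CCAAT thus stood both in genes that fell, CHEK1 and CHEK2, and in ATM and ETAA1, which gave no call. These matches describe letters in the windows only.

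The partners of the ATR branch were mostly lower, as TOPBP1 and CHEK1 were. Of 18 genes for the checkpoint clamp, its loader, RPA and fork protection, 16 were tested, and 14 fell and 0 rose with Si-FIBP#1, with a median log2 fold change of -0.69. With Si-FIBP#2, 11 of 16 fell and 0 rose, with a median of -0.55. The falls in all genes came to 19.9% and 17.7% and the rises to 27.8% and 31.1%. CLSPN, the mediator that brings CHEK1 to ATR, averaged 14.7 ± 0.75 FPKM in Scramble and 4.56 ± 0.60 and 4.86 ± 0.31 under Si-FIBP#1 and Si-FIBP#2 (SD, n = 3). Its log2 fold changes were -1.50 and -1.42 (limma adjusted p = 2.6e-06 and 4e-06). RFC4, a subunit of the clamp loaders, went from 63.5 ± 3.58 FPKM to 25.03 ± 1.58 and 22.0 ± 2.55 (limma adjusted p = 3.2e-06 and 2e-06). Not every clamp and loader gene fell, and those that follow were named after their values were seen. HUS1 passed with neither siRNA (log2 fold changes -0.04 and -0.07, limma adjusted p = 0.77 and 0.61). The same held for RAD17 (-0.11 and 0.06, adjusted p = 0.25 and 0.53). RAD1 passed with Si-FIBP#1 (-0.27, adjusted p = 0.0081) and not with Si-FIBP#2 (-0.07, adjusted p = 0.44). RAD9A fell with both (adjusted p = 0.0035 and 0.0034).

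Genes of the ATM branch were called in both directions. Of 11 genes for break sensing and chromatin mediators, 5 fell and 2 rose with Si-FIBP#1 (median -0.11), and 4 fell and 2 rose with Si-FIBP#2 (median 0.03). Of all genes, 19.9% fell and 27.8% rose in the first comparison and 17.7% and 31.1% in the second, so the 2 rises were no larger a share than the background. H2AX, the histone whose phosphorylated form MDC1 binds, fell from 140 ± 5.68 FPKM to 60.4 ± 1.07 and 56.2 ± 6.15 (limma adjusted p = 2.1e-06 and 1.7e-06). PAXIP1, another BRCT-domain protein, fell from 13.9 ± 0.93 FPKM to 6.33 ± 1.01 and 6.94 ± 1.11 (limma adjusted p = 0.00015 and 0.00031). TP53BP1, which marks breaks for end joining, rose instead, from 21.9 ± 1.44 FPKM to 32.0 ± 2.30 and 33.9 ± 2.64 (log2 fold changes 0.53 and 0.61, limma adjusted p = 0.00052 and 0.00022).

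Among 9 relatives of ATM and ATR and their chaperones, 5 fell and 1 rose with each siRNA, with medians of -0.15 and -0.24, beside the same shares of all genes. MTOR, the growth kinase of the same family, rose from 27.1 ± 1.92 FPKM to 33.5 ± 1.07 and 36.1 ± 2.16 (limma adjusted p = 0.0053 and 0.001). TELO2 and TTI1, subunits of the complex that helps fold these kinases, fell, while its subunit TTI2, named after its values were seen, did not pass (log2 fold changes 0.07 and 0.08, limma adjusted p = 0.62 and 0.6). TELO2 went from 20.2 ± 2.41 FPKM to 11.2 ± 0.38 and 15.1 ± 1.18 and, like WEE1 and PKMYT1, was higher with Si-FIBP#2 than with Si-FIBP#1 (0.39, limma adjusted p = 0.021). TTI1 went from 18.9 ± 0.71 FPKM to 13.9 ± 1.07 and 13.5 ± 0.67 (limma adjusted p = 0.0013 and 0.00066).

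The CDC25 phosphatases, CDKs and cyclins on which the checkpoint acts fell in 9 of 10 cases and rose in 1 with each siRNA (medians -1.16 and -0.97, beside 0.073 and 0.111 over all genes). Falls were called for 19.9% and 17.7% of all genes and rises for 27.8% and 31.1%. CDK1, the target that WEE1 and PKMYT1 inhibit, fell from 114 ± 1.93 FPKM to 33.4 ± 3.14 under Si-FIBP#1 and 44.4 ± 3.32 under Si-FIBP#2 (limma adjusted p = 4.4e-07 and 1.7e-06). CDK1 was higher with Si-FIBP#2 than with Si-FIBP#1 by 0.40 (limma adjusted p = 0.0078). Its cyclin, CCNB1, fell from 281 ± 5.24 FPKM to 84.3 ± 3.96 and 110 ± 11.6 (limma adjusted p = 4.4e-07 and 1.4e-06). CCNE1, a cyclin of S phase entry, rose from 11.2 ± 0.51 FPKM to 25.2 ± 0.58 and 20.01 ± 4.62 (limma adjusted p = 9.9e-05 and 0.0009). The other cyclin E gene, CCNE2, named after its values were seen, fell (log2 fold changes -1.14 and -1.07, limma adjusted p = 1.4e-05 and 2.4e-05).

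Of 7 genes for checkpoint recovery, 4 fell and 1 rose with Si-FIBP#1, and 4 fell and 2 rose with Si-FIBP#2 (medians -0.65 and -0.55). The rises did not exceed the share of all genes that rose, 27.8% and 31.1%, while 19.9% and 17.7% of all genes fell. PLK1, the kinase that marks WEE1 for destruction, fell from 98.0 ± 1.39 FPKM to 35.2 ± 1.02 and 41.7 ± 5.28 (limma adjusted p = 1.4e-06 and 4.3e-06). AURKA, which activates PLK1, fell from 97.0 ± 3.62 FPKM to 35.2 ± 1.26 and 51.2 ± 4.08 (limma adjusted p = 5.1e-07 and 5.7e-06). BTRC, a subunit of the ubiquitin ligase that takes WEE1 and claspin for destruction, rose from 6.46 ± 0.35 FPKM to 9.79 ± 0.52 and 10.4 ± 0.19 (limma adjusted p = 0.00025 and 0.00011).

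Genes that mark cycling cells moved with the groups as well. These lists share genes with the lists above, so they are not separate observations. CLSPN, RFC2, RPA2 and TIPIN are also in the ATR branch list. CDK1, CDC25C, CCNB2 and CCNE2 are also among the CDC25 phosphatases, CDKs and cyclins, and AURKA is also in the recovery list. All 43 S phase genes fell with both siRNAs, with medians of -1.17 and -1.09, where 19.9% and 17.7% of all genes fell. Their summed level was 2312 to 2328 FPKM in Scramble, 985 to 1085 under Si-FIBP#1 and 1061 to 1125 under Si-FIBP#2. RRM2 and TYMS, enzymes of deoxynucleotide supply, fell from 132 ± 2.84 and 213 ± 5.28 FPKM to 29.7 ± 2.34 and 45.7 ± 2.14 with Si-FIBP#1, and to 36.9 ± 7.13 and 73.4 ± 8.83 with Si-FIBP#2. Of 54 G2/M genes, 53 fell with Si-FIBP#1, and 50 fell and 1 rose with Si-FIBP#2 (medians -1.42 and -0.96), beside the same shares of falls and 27.8% and 31.1% of rises over all genes. The G2/M sum was 4740 to 4904 FPKM in Scramble, 1894 to 2038 under Si-FIBP#1 and 2350 to 2613 under Si-FIBP#2. CDC20 and TTK, which act in the spindle checkpoint, fell from 172 ± 7.27 and 43.2 ± 0.74 FPKM to 45.9 ± 1.94 and 11.1 ± 2.12 with Si-FIBP#1, and to 59.3 ± 5.05 and 17.1 ± 4.09 with Si-FIBP#2.

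Between the siRNAs, 40 of the 54 G2/M genes were higher with Si-FIBP#2 and 0 lower (median 0.39), and 8 of 43 S phase genes were higher and 3 lower (median 0.10), beside a median of 0.040 over all genes, of which 9.58% were higher and 5.8% lower. WEE1 and PKMYT1 differed in the same direction by 0.92 and 0.57. The part of cell cycle position in the fall of PKMYT1, WEE1, TOPBP1, CHEK1 and CHEK2, and in the difference between the siRNAs, was not tested.

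The pattern of PKMYT1 over the 9 samples was most like that of ORC1, a subunit of the origin recognition complex, with Pearson's r = 0.9987 on log2(FPKM + 1). TUBB6 (0.9962), TACC3 (0.9960), TYMS (0.9960) and NDC80 (0.9958) came next. The 9 samples fall into 3 groups, so these values mostly compare group means and are given as a description. ORC1 averaged 15.0, 4.16 and 6.10 FPKM in Scramble, Si-FIBP#1 and Si-FIBP#2, against 27.4, 6.80 and 10.6 for PKMYT1.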

How the data were processed

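RNA-seq of H1299 cells was analysed for 3 Scramble, 3 Si-FIBP#1 and 3 Si-FIBP#2 samples, grouped by their labels. For each sample the authors deposited FPKM for Ensembl and assembled transcripts, a unit taken from the range of the values because no source names it. The submitters' processing notes name HISAT2 and StringTie, without their roles. Versions, genome build and annotation are not given in the sources used here.

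Transcript FPKM were summed per gene. The 14985 genes that reached 1 FPKM in 3 or more samples were tested on log2(FPKM + 1) with limma 3.58.1 in R 4.3.3 (empirical Bayes with a mean-variance trend, all 9 samples in one fit, two-sided), with Benjamini-Hochberg adjustment. Calls used an adjusted p below 0.05 alone or with over 2-fold change. Transcripts were tested likewise. The fit was checked on simulated data. Estimated depth assumed an effective length 275 nt shorter than the transcript, over 8100 genes. It was rough (mean cosine of 0.756 to 0.805, where 1 means whole fragments throughout), so the spread between samples is the error used. Positions come from GENCODE release 29 (GRCh38), which holds 141 of the 163 transcripts, and promoters from RefSeq.

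The checkpoint genes, lists, named genes and tests were chosen with earlier results of these data known. Named were the 10 genes, their Ensembl transcripts with at least 20% of a group's sum, up to 2 genes of each list with the largest rise and fall called with both siRNAs, and the 5 genes most like the member that changed most. Alternatives were TPM or median-ratio scaling, another pseudocount, filter or set of groups, Ensembl transcripts only, no fold threshold, a replicate block and leaving out each sample. Sums without transcripts under 300 nt and length-weighted sums were chosen after seeing the data. Numbers were tabulated with Python 3.11.15. A further marker gene of the line is not reported here.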

Additional observations from a re-analysis of the deposited data

Results flagged for a closer look

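The effect of FIBP siRNA differed between the siRNAs for 2 of the 10 genes, both higher with Si-FIBP#2. Of all genes, 9.58% were called higher with Si-FIBP#2 than with Si-FIBP#1 and 5.8% lower. Among the 54 G2/M genes, 40 were higher and 0 lower, and among the 43 S phase genes 8 were higher and 3 lower. For the 10 CDC25 phosphatases, CDKs and cyclins it was 6 higher and 0 lower. The direction was thus not particular to the 2 checkpoint genes. WEE1 was higher with Si-FIBP#2 than with Si-FIBP#1 by 0.92 on the log2(FPKM + 1) scale (limma adjusted p = 0.0031), and all 3 Si-FIBP#2 samples were above all 3 Si-FIBP#1 samples. PKMYT1 was higher by 0.57 (adjusted p = 0.0064), again without overlap. Among all genes, 20.4% were higher with Si-FIBP#2 without overlap. Both differences passed under all 19 alternatives, from 0.79 to 1.07 for WEE1 and from 0.47 to 0.67 for PKMYT1. FIBP itself differed by 0.13 (adjusted p = 0.69).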

How the results depend on the processing

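Under median-ratio scaling the all-gene median log2 fold change was 0.0051 in place of 0.073 for Si-FIBP#1, and 0.0063 in place of 0.111 for Si-FIBP#2. The falls of PKMYT1, TOPBP1, CHEK1 and CHEK2 with both siRNAs, of WEE1 with Si-FIBP#1, and the differences of WEE1 and PKMYT1 between the siRNAs passed in every alternative run. Over the 10 genes, 527 values kept their direction and side of the threshold, 30 changed sign (4 of them, for MDC1 and ATM, then past the threshold), 10 came past it in the same direction and 0 lost it.

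Without a fold threshold the calls were 5 with Si-FIBP#1 (2 with it), 4 with Si-FIBP#2 (1) and 2 between the siRNAs (0). With a pseudocount of 0.1, 1 gene passed 2-fold between the siRNAs. Leaving out 1 sample at a time gave 0 to 1, with 1 (WEE1) without Si-FIBP#1 replicate 3. The length-weighted sum raised the calls without a fold threshold from 5 to 8 (7 lower, 1 higher) and from 4 to 7. For the alternative fits, the length-weighted sum among them, the shares of all genes called were not counted. Their counts of calls thus stand without a background.

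The sign changed with the length-weighted sum for ATM (0.18 and 0.072 with Si-FIBP#1 and Si-FIBP#2), ATR (0.0006) and ETAA1 (-0.0012) with Si-FIBP#1, and CHEK1 between the siRNAs (-0.0064). For MDC1 it gave -0.35, -0.22 and, between the siRNAs, 0.14, and leaving out transcripts under 300 nt gave -0.39, -0.19 and 0.20. With median ratios, ATR was at -0.10 and ETAA1 at -0.0043 with Si-FIBP#2, ETAA1 at -0.053 with Si-FIBP#1, and CHEK2 at -0.0006 between the siRNAs, and TPM scaling gave -0.026 for ETAA1 with Si-FIBP#1. Leaving out each sample in turn gave ATM -0.0998 to 0.0098 and ETAA1 -0.0085 to 0.034 with Si-FIBP#1. It gave ATR -0.0051 to 0.069 and MDC1 -0.22 to 0.44 with Si-FIBP#2, the lowest of MDC1 without Si-FIBP#2 replicate 2, and MDC1 -0.55 to 0.10 and CHEK2 -0.083 to 0.20 between the siRNAs, where FIBP was at -0.10 to 0.26. ETAA1 was not tested under the filter of 5 FPKM. The cause of these changes was not tested.

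Over all genes tested, replicate numbers showed little pairing: the deviations of samples with the same number correlated at -0.057 to 0.103. This cannot tell whether single genes were paired. With the replicate number as a block, the Si-FIBP#1 SE was 0.097 for CHEK2, 0.085 for ATRIP and 0.11 for WEE1. Without it these were 0.14, 0.13 and 0.14. The SE was also smaller for TOPBP1, MDC1 and PKMYT1, and larger for ATM, ATR, ETAA1 and CHEK1. With the replicate number as a block, 6 genes fell with Si-FIBP#1 in place of 5 (ATRIP at -0.31, adjusted p = 0.02), and 4 with Si-FIBP#2 and 2 between the siRNAs as before. FPKM carry no counting interval, so the 3 samples per group limit the precision. The fewest estimated fragments in a library were 196 for PKMYT1 and 279 for ATRIP and CHEK2.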
